A study of Homo sapiens with 36 samples.

Results

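The genes described here are 47 components of the human DNA replication machinery, out of 57500 gene IDs in the deposited count matrix. They were chosen by name, with earlier results of these data known. They cover origin recognition and licensing, the MCM helicase, origin firing, the replicative polymerases and primase, the sliding clamp and its loader, single-strand binding, nucleotide supply, and fork protection and regulation. PolyA mRNA was sequenced from OE33 and FLO1, both human esophageal adenocarcinoma cell lines, stably transduced with shAPE1#1, with shAPE1#3 or with a non-targeting shControl hairpin. APE1, the product of APEX1, cuts DNA at abasic sites during base excision repair and modulates transcription factors. Cells of each kind either met a bile salt mixture made acidic (ABS; pH 4, 200 µM, 20 min) with 6 h in complete medium afterwards, as a model of reflux, or were left unexposed. The 12 groups were thus shAPE1#1 with ABS, shAPE1#1, shAPE1#3 with ABS, shAPE1#3, shControl with ABS and shControl in each line, with 3 libraries per group, 36 in all. All cells, the controls included, carry a stable hairpin. The series labels the replicates as independent biological ones. OE33 was grown in RPMI1640 and FLO1 in DMEM, so line and medium cannot be told apart. The series asks how APE1 shapes transcription and genome stability under simulated reflux.

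Replication starts when the origin recognition complex marks origins in G1 and CDC6 and CDT1 load the MCM2-7 helicase ring onto them, a step that geminin (GMNN) later blocks. The kinase CDC7, MCM10, CDC45 and the GINS complex turn the loaded ring into the active CMG helicase. Polymerase alpha with primase starts each strand, polymerases epsilon and delta extend it on the PCNA clamp set by replication factor C, RPA coats single strands, and ribonucleotide reductase, TYMS and TK1 supply nucleotides. E2F1 is a transcription factor that activates many of these genes at the entry into S phase. In bulk RNA, fewer cells in S phase and less RNA of these genes per cell cannot be told apart.

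Libraries held 20.7 to 38.0 M counts in OE33 and 21.8 to 40.7 M in FLO1, and all 47 genes passed the filter on low counts in every comparison. APEX1 stood at 22.8 to 25.9 CPM (counts per M library counts) in unexposed OE33 shAPE1#1, 21.2 to 22.2 CPM in shAPE1#3 and 191.6 to 197.8 CPM in shControl. In FLO1 it stood at 24.95 to 25.3 CPM with shAPE1#1, 36.1 to 38.2 CPM with shAPE1#3 and 194.8 to 197.9 CPM with shControl, so the target was low in every knockdown library. Its log2 fold changes were -3.02 and -3.14 in unexposed OE33 and -2.97 and -2.42 in unexposed FLO1 with shAPE1#1 and shAPE1#3. In OE33 0 of all genes were called between the shAPE1#3 and shAPE1#1 groups by edgeR (1248 genes at an unadjusted p under 0.05), and whether these groups carry different hairpins was not tested. The 7 epithelial markers summed to 18300 to 24240 CPM in OE33 and 2430 to 4656 CPM in FLO1, where EPCAM (0.38 to 1.70 CPM in shControl) and CLDN7 (0.19 to 0.96 CPM) were nearly absent while KRT8 and KRT18 were high. Immune markers summed to at most 9.54 CPM and endothelial markers to at most 1.57 CPM. The 7 fibroblast markers summed to 18.71 to 37.61 CPM in FLO1 and 2.49 to 20.69 CPM in OE33. One library stood apart. In FLO1 shControl ABS replicate 2, AT-rich genes were low relative to GC-rich genes by 0.72 on the log2 scale, where the other 35 libraries lay between -0.40 and 0.31. The counts of the FLO1 comparisons that use this library are also given without it.

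In unexposed control cells the lines differed in 38 of these 47 genes. In edgeR (quasi-likelihood test, Benjamini-Hochberg adjustment, called at an adjusted p under 0.05 here and below), 21 members were higher and 17 lower in OE33 than in FLO1, which is 80.9% of the 47 against 77.6% of all genes tested (37.6% higher, 39.9% lower). The share of members is close to that background. PCNA (ENSG00000132646; GRCh38 chr20:5114953-5126626, minus strand), the sliding clamp, had 642, 655 and 613 CPM in OE33 shControl, against 159, 165 and 146 CPM in FLO1 shControl. Its log2 fold change was 2.16 ± 0.08 (SE, n = 3 per group; adjusted p = 1.06e-24, edgeR). TYMS (ENSG00000176890; chr18:657604-673578, plus strand), thymidylate synthase, lay the other way, at 93.0, 98.3 and 94.4 CPM in OE33 against 369, 386 and 388 CPM in FLO1. That is a log2 fold change of -1.87 ± 0.07 (adjusted p = 1.45e-23, edgeR). The other larger differences were GINS1 at 2.05, RPA3 at 1.94, MCM8 at 1.69, ORC2 at 1.27 and CDC6 at 1.17 among the higher genes, and CDC45 at -1.69, RPA2 at -1.28, POLA1 at -1.04, POLE at -1.03 and GMNN at -1.02 among the lower ones. Complexes were split within themselves. Of the 3 RPA subunits RPA3 was higher and RPA1 and RPA2 lower, and of the 6 MCM2-7 subunits MCM6 and MCM7 were higher, MCM4 and MCM5 lower, and MCM2 (-0.06) and MCM3 (0.05) did not pass. All 4 genes of fork protection and regulation were lower in OE33, with E2F1 at -0.73. The libraries of the lines did not overlap in 37 of these 38 genes, with CDC7 the exception. Here and below, the share of all called genes without overlap was not computed. Such counts use the same libraries as the tests and add no evidence to them.

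Per kilobase of merged exons, the levels within a line spanned a wide range. In OE33 shControl the highest mean levels were 432.6 CPM per kb for PCNA and 375.1 for MCM7, and the lowest were 3.71 for GINS4 and 5.03 for POLE2. In FLO1 shControl MCM7 led with 223.9 CPM per kb, followed by TK1 with 162.2 and TYMS with 154.3, and MCM8 was lowest with 3.11. The 47 genes held 0.612 ± 0.003% of the library in OE33 shControl after ABS and 0.713 ± 0.007% in unexposed OE33 shControl (SD, n = 3). In FLO1 after ABS the share was 0.608 ± 0.003% with shAPE1#1, 0.725 ± 0.003% with shAPE1#3 and 0.720 ± 0.034% with shControl. In unexposed FLO1 it was 0.647 ± 0.002% with shAPE1#1, 0.744 ± 0.006% with shAPE1#3 and 0.722 ± 0.016% with shControl. FLO1 shControl ABS replicate 2 stood at 0.757%. Which line had the larger share depended on the denominator. The unexposed shControl means were 0.713% in OE33 and 0.722% in FLO1 of library totals, but 0.749% and 0.692% of TMM effective library sizes, because the TMM factors were 0.933 to 0.99 in OE33 and 1.018 to 1.129 in FLO1.

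**Figure D1:**
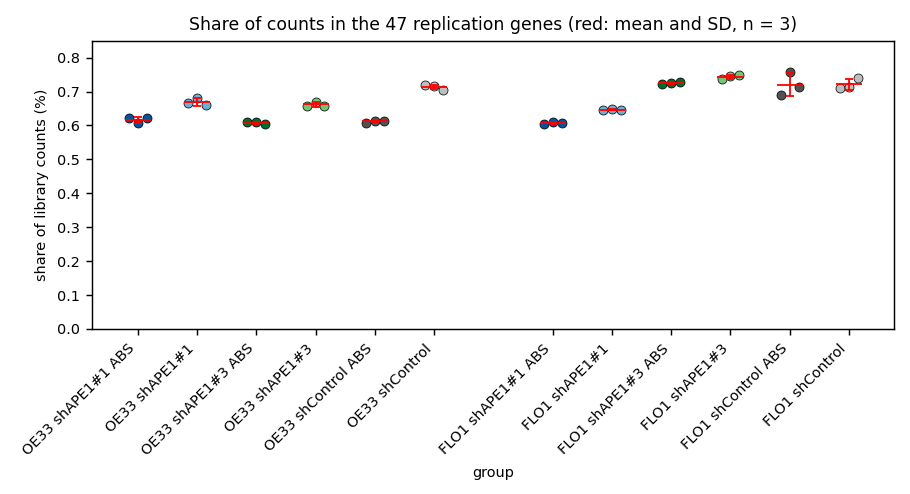
Share of library counts (%, y axis) held by the 47 replication genes in each library, by group (x axis), with OE33 on the left and FLO1 on the right; points are libraries and red bars the mean and SD of 3. In OE33 the ABS groups average between 0.608 and 0.617%, below the unexposed groups at 0.662 to 0.713%; in FLO1 the shAPE1#1 groups are the lowest, at 0.608 and 0.647%.

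Promoters were searched because E2F factors bind upstream of many S phase genes and the members tended to move together in OE33. RefSeq promoter windows (GRCh38.p14, 250 bases before to 50 after the start, 300 bases) were found for 41 members, 54 windows in all. MCM4, MCM5, GINS4, POLD3, RPA2 and RPA3 had no entry. Letters of E2F sites were TTTCCCGC, TTTGGCGC or TTTCGCGC on either strand, and overlapping matches were each counted. They occurred in 24 of 54 member windows (44.4%), against 2.7% of all 35116 windows and 3.4% of those of protein-coding genes. CCAAT, the letters bound by NF-Y, occurred on either strand in 64.8% of member windows and 34.6% of all windows. The 250 bases before the start follow for 4 of the members called in most comparisons that hold E2F letters there, 5′ to 3′ on the gene's strand, with those letters in capitals. They are GINS2 (chr16:85688955-85689204, minus strand), TYMS (chr18:657403-657652, plus strand), E2F1 (chr20:33686386-33686635, minus strand) and MCM7 (chr7:100101398-100101647, minus strand). RefSeq starts need not be those of GENCODE.
GINS2: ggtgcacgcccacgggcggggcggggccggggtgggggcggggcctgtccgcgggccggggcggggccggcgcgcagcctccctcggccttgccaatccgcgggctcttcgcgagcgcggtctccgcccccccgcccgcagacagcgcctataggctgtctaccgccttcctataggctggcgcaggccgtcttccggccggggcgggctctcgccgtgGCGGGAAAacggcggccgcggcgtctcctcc
TYMS: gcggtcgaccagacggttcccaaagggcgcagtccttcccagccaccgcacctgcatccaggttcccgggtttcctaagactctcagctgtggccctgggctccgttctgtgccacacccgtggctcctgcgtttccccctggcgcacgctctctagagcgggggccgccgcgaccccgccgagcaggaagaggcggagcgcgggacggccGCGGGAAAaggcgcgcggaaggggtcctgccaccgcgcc
E2F1: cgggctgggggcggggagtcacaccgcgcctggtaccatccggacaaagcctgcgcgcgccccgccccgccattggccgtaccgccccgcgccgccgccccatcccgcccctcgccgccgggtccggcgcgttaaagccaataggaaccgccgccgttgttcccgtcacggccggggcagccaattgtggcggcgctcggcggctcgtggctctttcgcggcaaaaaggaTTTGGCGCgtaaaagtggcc
MCM7: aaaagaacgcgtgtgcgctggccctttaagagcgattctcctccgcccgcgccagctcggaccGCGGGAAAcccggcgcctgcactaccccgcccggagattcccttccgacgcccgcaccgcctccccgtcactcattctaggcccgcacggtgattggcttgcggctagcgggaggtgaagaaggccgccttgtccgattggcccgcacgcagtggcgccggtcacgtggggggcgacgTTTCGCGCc
GINS2 and TYMS hold the same 8 letters, 31 and 39 bases before their starts, and E2F1 holds another of the 3 forms 20 bases before its own. MCM7 holds 1 match 9 bases before its start and another at 187. PCNA, called as often as E2F1 and MCM7, holds its match 59 bases before the start and is not printed. Over all members 31 matches fell in 23 genes, at a median of 34 bases before the start. CDC6 has its match 7 bases after the start. Of the 20 members that fell after ABS in OE33 shControl cells (below), 19 had a window and 11 of these held E2F letters; of the other 27, 22 had a window and 12 held them. A match is a run of letters and was not tested for binding.

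**Figure D2:**
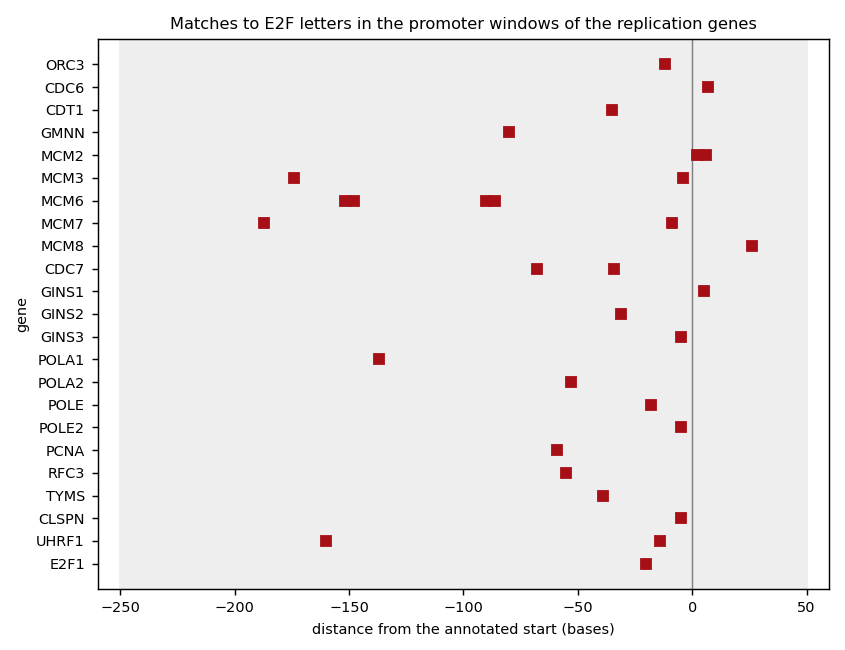
Positions of E2F letters in the RefSeq promoter windows of the 23 members that hold them; the x axis is the distance in bases from the annotated start, the grey band is the searched window and each square is the first base of a match. Most of the 31 matches, 25, lie between 100 bases before the start and 50 after it.

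The first comparison asked what acidic bile salts did in control cells. In OE33 shControl 20 of the 47 genes fell and 0 rose after ABS, 42.6% of the members against 2.51% of all genes that fell (8.4% called in either direction, 5.89% rose). The median over all 47 was -0.22 on the log2 scale, against 0.00 over all genes tested, and 46 of 47 log2 fold changes were below 0. Every role had at least 1 member that fell. GINS2 (ENSG00000131153; chr16:85676198-85690073, minus strand), a subunit of the GINS complex in the CMG helicase, had 34.5, 36.6 and 37.5 CPM after ABS, against 51.9, 50.4 and 46.96 CPM unexposed. It fell by 0.44 ± 0.08 on the log2 scale, 26.1% (adjusted p = 0.000501, edgeR). POLE2 (ENSG00000100479; chr14:49643555-49688422, minus strand), the second subunit of polymerase epsilon, had 9.82, 9.55 and 11.8 CPM after ABS, against 14.6, 15.3 and 14.7 CPM unexposed. Its fall of 0.49 ± 0.11 was the largest of the members (adjusted p = 0.00501, edgeR). MCM6, a subunit of the helicase ring, had 142, 151 and 145 CPM after ABS, against 192, 201 and 197 CPM unexposed. Its change of -0.41 ± 0.06 had the smallest adjusted p of the members, 4.85e-05 by edgeR. GINS2 and POLE2 overlap antisense genes, whose reads cannot be told apart where counting ignores strand. So do ORC2, MCM2, MCM7, MCM8, GINS3, GINS4, POLA1, PRIM1, RFC3, RFC4, RFC5, RPA1, RPA3, RRM1, TYMS and CLSPN. PCNA, POLD2, RFC3, RFC5, RPA2, RRM2 and TYMS have annotated pseudogenes that could share reads. In GINS2, POLE2 and MCM6 every exposed library lay below every unexposed one, as in each of the other 17 genes called.

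PCNA had 490, 493 and 513 CPM after ABS, against 642, 655 and 613 CPM unexposed, a change of -0.33 ± 0.06 (adjusted p = 0.00121, edgeR). The loader subunits RFC3 (-0.40), RFC5 (-0.32) and RFC4 (-0.27) fell with the clamp they load, so 4 of 6 genes of that role fell. E2F1 (ENSG00000101412; chr20:33675683-33686404, minus strand) had 72.7, 67.2 and 68.9 CPM after ABS, against 97.6, 88.0 and 88.9 CPM unexposed, a change of -0.37 ± 0.09 (adjusted p = 0.00624, edgeR). Among licensing genes ORC3 (-0.35), GMNN (-0.29) and CDC6 (-0.29) fell. Among polymerase and primase genes PRIM1, the catalytic primase subunit, and POLD1, the catalytic subunit of polymerase delta, fell by 0.34 each beside POLE2. RRM1, the large subunit of ribonucleotide reductase, fell by 0.31 and TYMS by 0.23, while RRM2 (-0.20) and TK1 (-0.07) did not pass. MCM10 (-0.32), RPA3 (-0.27), MCM3 (-0.24), RPA1 (-0.23) and the fork protection gene TIMELESS (-0.23) complete the 20. Within the MCM2-7 ring MCM3 and MCM6 fell, whereas MCM2 had 282, 302 and 296 CPM after ABS against 328, 331 and 319 CPM unexposed and did not pass (-0.13 ± 0.07, adjusted p = 0.265, edgeR). CDT1, at 0.10, was the only member above 0.

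The count of 20 depended on single libraries of the compared groups. Without OE33 shControl replicate 1 it was 9, without replicate 2 it was 10, and without ABS replicates 1, 2 and 3 it was 10, 11 and 11. With a correction for GC content 33 members fell, the same 20 among them, and DESeq2 called 24. Here and below, the share of all genes called in such alternative settings or without 1 library is not reported. These counts therefore have no background to be read against. The fibroblast markers summed to 4.14 to 20.69 CPM in the exposed and 3.67 to 4.02 CPM in the unexposed libraries. The 5 immune markers summed to 5.85 to 6.17 CPM in the exposed and 6.03 to 8.58 CPM in the unexposed libraries. Of these, CD3E was at 0 in all 6 libraries. The part of either marker list in the result was not tested.

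**Figure D3:**
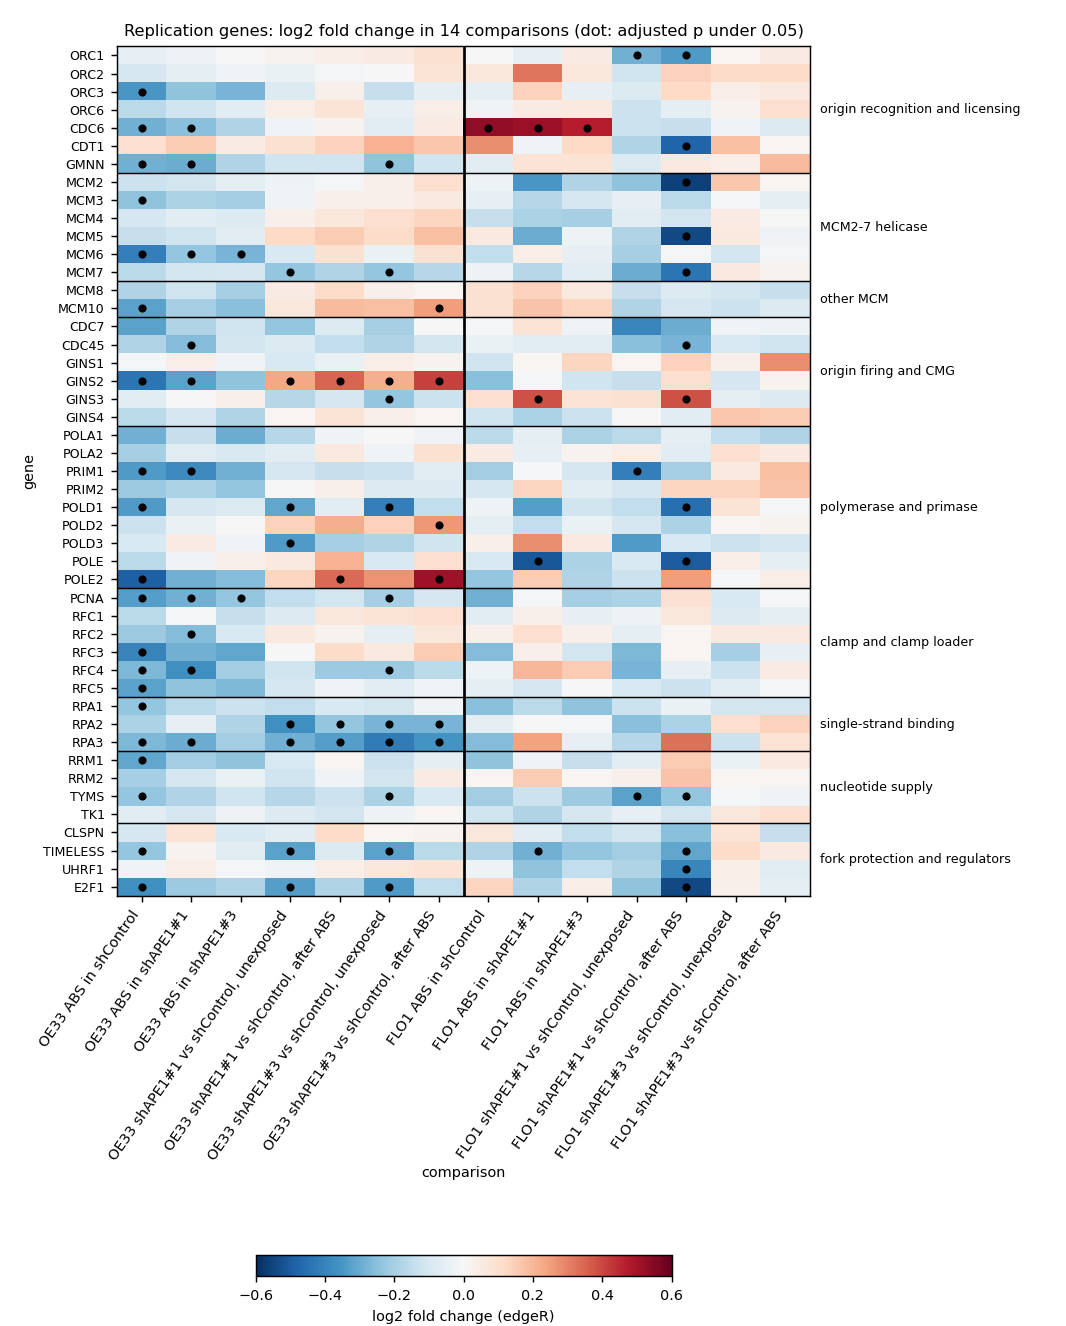
Log2 fold changes (colour, edgeR) of the 47 replication genes (rows, grouped by role) in 14 comparisons (columns), with OE33 to the left of the thick line and FLO1 to the right; dots mark an adjusted p under 0.05. The OE33 ABS columns are almost wholly blue, with 20, 10 and 2 dots, and CDC6 is red in the 3 FLO1 ABS columns and blue in the OE33 ones.

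In OE33 knockdown cells ABS lowered 10 members with shAPE1#1 and 2 with shAPE1#3, counts that were 19 and 12 with a GC correction and 0 and 11 in fits on the compared libraries alone. In shAPE1#1 cells 10 members fell and 0 rose (4.73% of all genes called, 1.71% fell, 3.02% rose), led by PRIM1 (-0.38), RFC4 (-0.37), GINS2 (-0.32), GMNN (-0.30), RPA3 (-0.30) and PCNA (-0.29), followed by CDC45 (-0.26), RFC2 (-0.26), CDC6 (-0.25) and MCM6 (-0.23). In shAPE1#3 cells MCM6 (-0.28 ± 0.06, adjusted p = 0.00804, edgeR) and PCNA (-0.23 ± 0.06, adjusted p = 0.0473) fell and 0 rose (2.26% of all genes called, 0.502% fell, 1.76% rose). PCNA had 474, 481 and 473 CPM in shAPE1#1 after ABS against 560, 578 and 586 CPM unexposed, and 473, 491 and 428 CPM in shAPE1#3 after ABS against 540, 570 and 531 CPM unexposed. In each pair the exposed libraries lay below the unexposed ones. MCM2 (-0.11 and -0.06) and E2F1 (-0.22 and -0.18) did not pass in shAPE1#1 and shAPE1#3 cells. The 20 genes that fell in shControl cells had a median log2 fold change of -0.24 in shAPE1#1 cells, with 19 below 0, and of -0.22 in shAPE1#3 cells, with 20 below 0. Neither knockdown was shown to change the response. The interaction of knockdown and ABS called 0 members with shAPE1#1 (3 at an unadjusted p under 0.05, 0 by DESeq2; 0% of all genes called) and 0 with shAPE1#3 (1 at an unadjusted p under 0.05, 0 by DESeq2; 0.0129% of all genes called). Its median was 0.06 and 0.07, and 40 and 41 of 47 values were above 0. MCM2 stood at 0.02 and 0.07, PCNA at 0.04 and 0.10 and E2F1 at 0.16 and 0.19. The interaction contrasts share the shControl libraries.

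The counts in knockdown cells were less stable than in shControl. For shAPE1#1 leaving out 1 library gave between 2 (without shAPE1#1 replicate 3) and 12 calls, with 4 without shAPE1#1 replicate 1 or ABS replicate 3, and 6 without shAPE1#1 ABS replicate 2, shControl replicate 2, shControl ABS replicate 2, shAPE1#3 replicate 1 or shAPE1#3 ABS replicate 1. For shAPE1#3 the count ran from 0 (without shAPE1#3 replicate 2) to 7 (without shAPE1#1 replicate 2 or ABS replicate 3), with 5 without shAPE1#1 ABS replicate 2. It was 1 without shAPE1#3 replicate 1 or 3, shAPE1#3 ABS replicate 1 or 3, shAPE1#1 replicate 1, shAPE1#1 ABS replicate 1 or any 1 of the 6 shControl libraries, and DESeq2 called 8.

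In FLO1 1 member was called after ABS in every kind of cell. CDC6 (ENSG00000094804; chr17:40287633-40304657, plus strand), the loader of the MCM ring, rose after ABS in all 3 kinds of FLO1 cells. It had 118, 117 and 123 CPM in shAPE1#1 after ABS against 79.3, 82.5 and 84.4 CPM unexposed. It had 122, 130 and 128 CPM in shAPE1#3 after ABS against 82.8, 88.4 and 95.4 CPM unexposed, and 149, 113 and 140 CPM in shControl after ABS against 82.7, 100.1 and 85.2 CPM unexposed. In none of the 3 did exposed and unexposed libraries overlap. The log2 fold changes were 0.52 ± 0.09 (adjusted p = 0.000812, edgeR) with shAPE1#1, 0.47 ± 0.09 (adjusted p = 0.00348) with shAPE1#3 and 0.53 ± 0.09 (adjusted p = 0.000732) in shControl. CDC6 kept its call in each of these under the omission of any 1 of the 18 libraries, and lost it in shControl in a fit on the 6 compared libraries alone.

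In OE33 shControl cells the same gene had 141, 152 and 148 CPM after ABS against 179, 184 and 185 CPM unexposed. The response in OE33 minus that in FLO1 was -0.83 ± 0.10 (adjusted p = 7.64e-07, edgeR fit of both lines, 36 libraries), and -0.89 without FLO1 shControl ABS replicate 2. CDC6 was the only member called for this difference (0 higher, 1 lower, against 0.764 and 0.967% of all genes), with 9 members at an unadjusted p under 0.05 and 3 called by DESeq2. Without FLO1 shControl ABS replicate 2 it was joined by MCM6 and MCM10, and without replicate 1 of that group 2 members were called. The differences of E2F1 (-0.51), MCM2 (-0.11) and PCNA (-0.05) did not pass, so the falls of E2F1 and PCNA in OE33 are not shown to be absent in FLO1.

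**Figure D4:**
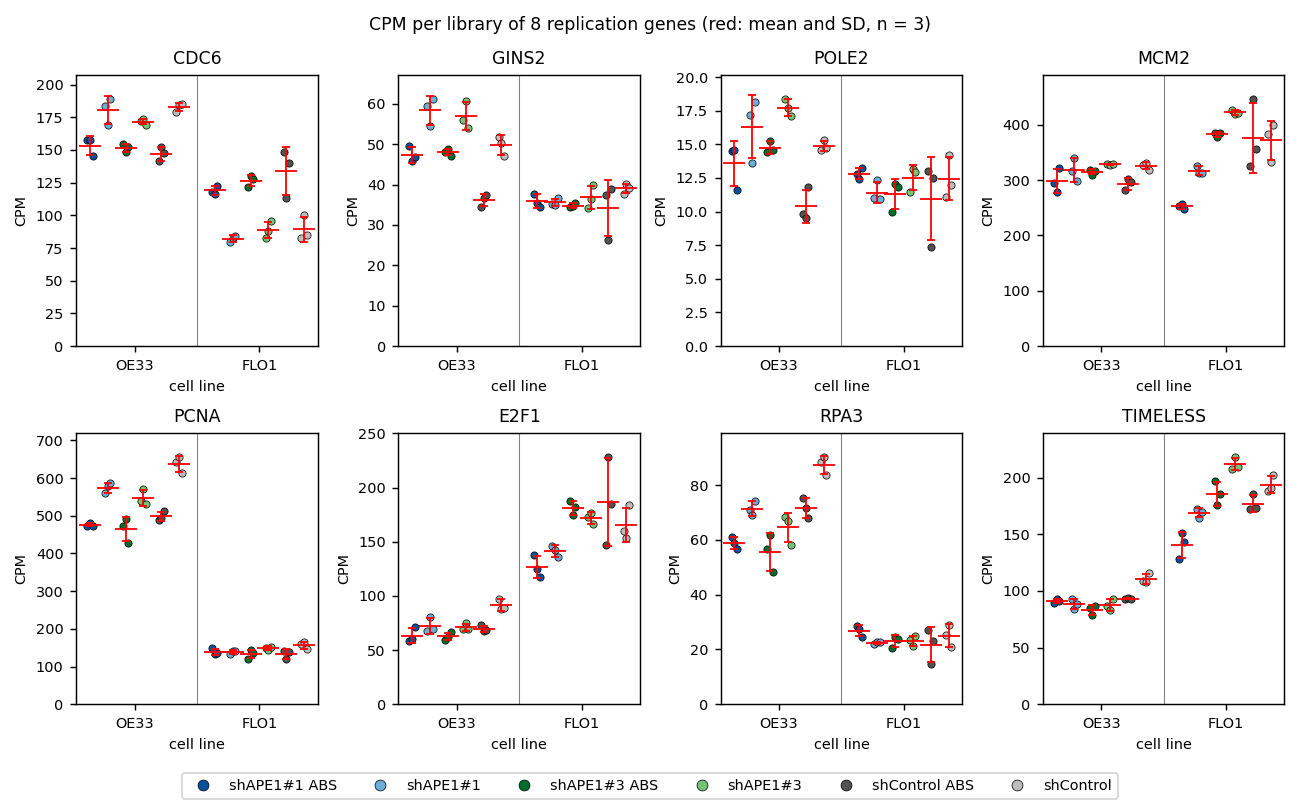
CPM (y axis) of 8 replication genes in each library, OE33 left and FLO1 right of the grey line in each panel; colours give the group, points the libraries and red bars the mean and SD of 3. CDC6 is lower in the ABS groups of OE33 and higher in those of FLO1, GINS2 and POLE2 are lower in OE33 shControl ABS than in the other OE33 groups by their means, and RPA3 is highest in unexposed OE33 shControl.

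Apart from CDC6, ABS called 3 members in FLO1, all in shAPE1#1 cells. The counts of 1, 4 and 1 in shControl, shAPE1#1 and shAPE1#3 cells were 8, 9 and 6 with a GC correction, 3, 6 and 3 by DESeq2, and 0, 11 and 4 in fits on the compared libraries alone. In shControl cells 1 rose and 0 fell (3% of all genes called, 2.48% rose, 0.516% fell), with PCNA at 142, 119 and 139 CPM after ABS against 159, 165 and 146 CPM unexposed. PCNA's change of -0.29 ± 0.08 missed the threshold (adjusted p = 0.0736, edgeR), and MCM2 (-0.03) and E2F1 (0.13) did not pass. Without FLO1 shControl ABS replicate 2 CDC6 rose by 0.61, TYMS and TK1 were called lower, and MCM2 and E2F1 stood at -0.20 and -0.08. Without replicate 1 of that group 3 were called as well. In shAPE1#3 cells CDC6 was again the 1 gene called (1.81% of all genes called, 1.53% rose, 0.285% fell), and without FLO1 shControl ABS replicate 2 it was 1 of 3. In shAPE1#1 cells 2 rose and 2 fell (5.01% of all genes called, 2.94% rose, 2.07% fell). Beside CDC6 these were GINS3, another GINS subunit (0.38 ± 0.10), POLE, the catalytic subunit of polymerase epsilon (-0.51 ± 0.13), and TIMELESS (-0.29 ± 0.08), at adjusted p of 0.0215, 0.0213 and 0.0489 by edgeR. MCM2 (-0.35), E2F1 (-0.18) and PCNA (-0.01) did not pass in shAPE1#1 cells, nor did MCM2 (-0.18), E2F1 (0.04) and PCNA (-0.20) in shAPE1#3 cells. POLE had 114, 156 and 152 CPM after ABS against 188, 202 and 199 CPM unexposed. Those 4 calls were 10 without FLO1 shControl ABS replicate 2, 2 without shAPE1#1 replicate 2 or ABS replicate 3, and 1 without shAPE1#1 replicate 1, replicate 3 or ABS replicate 1. Interactions called 0 members with either shRNA (4 at an unadjusted p under 0.05 with shAPE1#1, 0 with shAPE1#3, 0 by DESeq2 in both; 0% of all genes called), with MCM2 at -0.32 and -0.15, PCNA at 0.28 and 0.08 and E2F1 at -0.30 and -0.09. Both interactions again called 0 members without FLO1 shControl ABS replicate 2, with MCM2 at -0.13 and 0.02, PCNA at 0.24 and 0.04 and E2F1 at -0.09 and 0.12. For shAPE1#1 the median over the 47 genes was 0.07 with that library and 0.00 without it, and r with GC content was -0.77 and -0.22.

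The next comparison asked what lowering APE1 did to these genes. In FLO1 after ABS 12 members were lower and 1 higher with shAPE1#1 than with shControl, against 8.31 and 8.26% of all genes. MCM2 (ENSG00000073111; chr3:127598223-127622436, plus strand), a subunit of the helicase ring, had 253, 257 and 249 CPM with shAPE1#1, against 326, 446 and 356 CPM with shControl. It was lower by 0.56 ± 0.11 (fell by 32.1%; adjusted p = 0.00147, edgeR). E2F1 had 138, 125 and 117 CPM with shAPE1#1, against 147, 228 and 185 CPM with shControl, a change of -0.54 ± 0.13 (adjusted p = 0.00624, edgeR). MCM5 (-0.54), POLE (-0.50), CDT1 (-0.48), POLD1 (-0.45), MCM7 (-0.44), the hemimethylation reader UHRF1 (-0.39), ORC1 (-0.34), TIMELESS (-0.31), CDC45 (-0.28) and TYMS (-0.23) made up the 12. GINS3 was higher (0.38 ± 0.10), and PCNA, at 148, 132 and 136 CPM with shAPE1#1 against 142, 119 and 139 CPM with shControl, did not pass (0.09). None of the 13 genes overlapped between groups, which adds no evidence to the tests.

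GC content and 1 library moved with this result. The 47 genes share these libraries and are not independent replicates. Across them the log2 fold change and the GC content had a Pearson r of -0.67. The 12 lower genes had a median GC of 56.3%, against 44.5% in the others. Without FLO1 shControl ABS replicate 2, r was -0.16 and 11 members were lower and 1 higher, of which 8 of the lower genes were among the 12 (ORC1, MCM2, MCM5, MCM7, CDC45, POLE, TIMELESS and E2F1). MCM2 then stood at -0.38 (adjusted p = 0.00155, edgeR) and E2F1 at -0.33 (adjusted p = 0.0174), while CDT1 (-0.24), POLD1 (-0.16), UHRF1 and TYMS were no longer called and CDC7, PRIM1 and CLSPN were. With a GC correction 20 were lower and 1 higher, the same 12 among them, and r was -0.26. A fit on the 6 compared libraries alone called 0. Of the 7 epithelial markers 4 were higher with shAPE1#1 after ABS (KRT18 0.59, KRT8 0.75, CLDN4 0.97 and CDH1 1.12), and their part in the result was not tested.

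**Figure D5:**
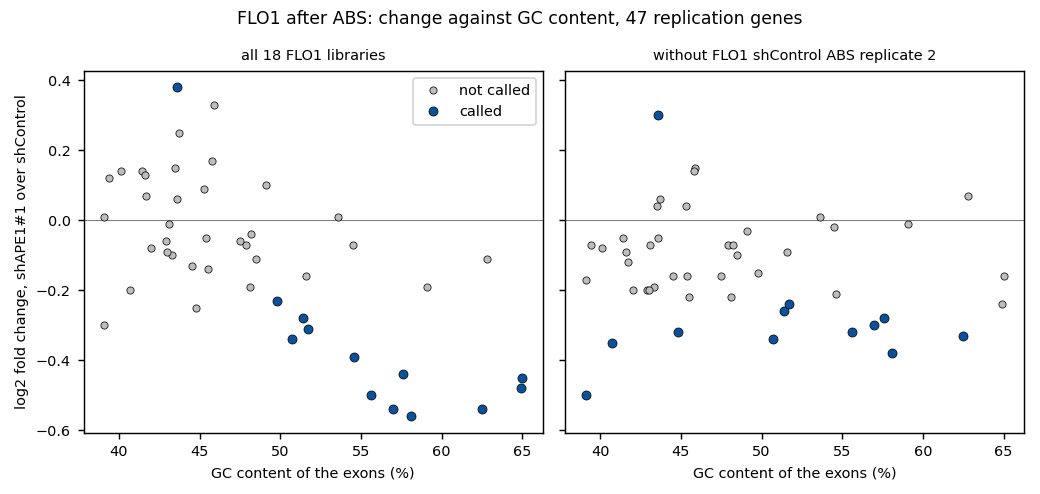
Log2 fold change with shAPE1#1 over shControl in FLO1 after ABS (y axis) against GC content (%, x axis) for the 47 replication genes. Filled blue points are called. With all 18 libraries (left) the changes decline with GC content, r of -0.67; without FLO1 shControl ABS replicate 2 (right) r is -0.16 and 11 lower genes are called.

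In unexposed FLO1 cells 3 members were lower and 0 higher with shAPE1#1 than with shControl (6.74% of all genes called, 2.22% lower, 4.52% higher), and 42 of 47 values were below 0, with a median of -0.14. PRIM1 had 20.4, 22.5 and 21.8 CPM with shAPE1#1, against 27.6, 30.9 and 26.8 CPM with shControl, a change of -0.41 ± 0.11 (adjusted p = 0.0293, edgeR). TYMS had 315, 302 and 305 CPM with shAPE1#1, against 369, 386 and 388 CPM with shControl (-0.32 ± 0.08, adjusted p = 0.0146, edgeR). ORC1, a subunit of the origin recognition complex, had 47.1, 50.5 and 51.2 CPM against 59.7, 60.4 and 60.8 CPM (-0.29 ± 0.08, adjusted p = 0.0247, edgeR). The groups did not overlap in any of the 3. MCM2 (-0.24), E2F1 (-0.24) and PCNA (-0.19) did not pass. The count of 3 was 13 without FLO1 shControl ABS replicate 2, 7 without ABS replicate 1 of that group, 1 without shControl replicate 1 or 2 or shAPE1#1 replicate 1, and 0 without shControl replicate 3 or shAPE1#1 replicates 2 or 3. With GC correction 16 were lower, the same 3 among them.

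With shAPE1#3 FLO1 showed 0 calls among the members, both unexposed and after ABS, and 0 members passed an unadjusted p under 0.05 or were called by DESeq2 in either (0.788% of all genes called unexposed, 0.166% higher and 0.622% lower; 0.783% after ABS, 0.124% higher and 0.658% lower). The medians were 0.01 and 0.01. MCM2 (0.16 and 0.01), PCNA (-0.09 and -0.01) and E2F1 (0.03 and -0.06) did not pass. Without FLO1 shControl ABS replicate 2 POLA1, the catalytic subunit of polymerase alpha, was called lower after ABS. The unexposed knockdowns differed from each other. With shAPE1#3 7 members were higher and 0 lower than with shAPE1#1 (4.66% of all genes higher, 7.52% lower). These were PRIM1 (0.47 ± 0.11, adjusted p = 0.00681, edgeR), MCM2 (0.40), MCM7 (0.37), RPA2 (0.35), TYMS (0.31), TIMELESS (0.31) and ORC1 (0.30), while E2F1 (0.27) and PCNA (0.10) did not pass. MCM2 had 427, 419 and 421 CPM with shAPE1#3 against 326, 313 and 313 CPM with shAPE1#1, and MCM7, which is also in the helicase ring, had 1032, 1053 and 1038 CPM against 811, 809 and 778 CPM. APEX1 itself was higher with shAPE1#3 by 0.55 ± 0.08. The count of 7 was 12 without FLO1 shControl ABS replicate 2, 3 without shAPE1#1 replicate 2 or 3 or shAPE1#3 replicate 2, and 4 without shAPE1#3 replicate 3.

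In unexposed OE33 cells the single-strand binding subunits RPA2 and RPA3, POLD1, MCM7, TIMELESS and E2F1 were lower with both shRNAs. With shAPE1#1 7 members (14.9%) were lower and 1 higher than with shControl, against 8.13 and 8.24% of all genes, and with shAPE1#3 11 (23.4%) were lower and 1 higher, against 10.5 and 11.2%. In either direction 8 of the 47 members were called with shAPE1#1 and 12 with shAPE1#3. Both shares are close to those of all genes, 16.4 and 21.7%. Of the 7 lower genes 6 were among the 11, namely RPA2, RPA3, POLD1, MCM7, TIMELESS and E2F1. The groups share their shControl libraries. RPA3 (ENSG00000106399; chr7:7636518-7718607, minus strand), the smallest subunit of the single-strand binding complex, had 70.8, 68.9 and 74.3 CPM with shAPE1#1, 68.3, 67.0 and 58.3 CPM with shAPE1#3, and 88.2, 90.1 and 83.8 CPM with shControl. Its changes were -0.29 ± 0.08 (adjusted p = 0.0161, edgeR) and -0.42 ± 0.08 (adjusted p = 0.000747). TIMELESS (ENSG00000111602; chr12:56416373-56449403, minus strand) had 92.8, 84.4 and 88.2 CPM with shAPE1#1, 86.7, 83.2 and 92.9 CPM with shAPE1#3, and 109, 108 and 116 CPM with shControl, for changes of -0.32 with both (adjusted p = 0.000486 and 0.000532, edgeR). E2F1 fell by 0.33 and 0.34 and POLD1 by 0.31 and 0.41. POLD3, an accessory subunit of polymerase delta, was lower with shAPE1#1 alone among the calls (-0.34, and -0.18 with shAPE1#3), and GMNN (-0.24), GINS3 (-0.23), RFC4 (-0.22), PCNA (-0.20) and TYMS (-0.19) with shAPE1#3. GINS2 was the gene that was higher in both, by 0.23 and 0.22, at 59.5, 54.4 and 61.1 CPM with shAPE1#1, 55.9, 60.8 and 54.1 CPM with shAPE1#3, and 51.9, 50.4 and 46.96 CPM with shControl. MCM2 (-0.03 and 0.03) did not pass. For shAPE1#1 the count of 8 was 4 without shControl replicate 1 and 5 without shControl replicate 2 or shAPE1#1 replicate 1. For shAPE1#3 the count of 12 was 5 without shControl replicate 1 or shAPE1#3 replicate 3 and 6 without shControl replicate 2 or shAPE1#3 replicate 1. Between shAPE1#3 and shAPE1#1 0 members were called (1 at an unadjusted p under 0.05, 0 by DESeq2; 0% of all genes), with MCM2 at 0.07, PCNA at -0.05 and E2F1 at -0.01.

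After ABS the OE33 knockdowns held more GINS2 and POLE2 and less RPA2 and RPA3 than shControl. With shAPE1#1 these 4 genes were the calls, 2 higher and 2 lower (7.34% of all genes higher, 8.46% lower), and with shAPE1#3 MCM10 (0.25) and POLD2 (0.26) were higher as well, 4 higher and 2 lower (8.75 and 9.31% of all genes). In either direction 8.5% of the members were called with shAPE1#1 and 12.8% with shAPE1#3. Both shares were below those of all genes, 15.8 and 18.1%. GINS2 had 49.7, 45.7 and 46.8 CPM with shAPE1#1, 48.2, 48.9 and 47.2 CPM with shAPE1#3, and 34.5, 36.6 and 37.5 CPM with shControl. It was higher by 0.35 ± 0.08 (adjusted p = 0.00214, edgeR) and 0.41 ± 0.08 (adjusted p = 0.000359). POLE2 was higher by 0.34 ± 0.11 with shAPE1#1, where the groups overlapped (14.5, 14.6 and 11.6 CPM against 9.82, 9.55 and 11.8 CPM), and by 0.51 ± 0.11 with shAPE1#3, where they did not. RPA3 was lower by 0.33 and 0.36 and RPA2 by 0.23 and 0.28. PCNA (-0.11 and -0.10), E2F1 (-0.18 and -0.15) and MCM2 (-0.01 and 0.10) did not pass. For shAPE1#1 the count of 4 was 2 without shControl ABS replicate 1 or 2 and 8 without shAPE1#1 replicate 2, and for shAPE1#3 the count of 6 was 3 without shControl ABS replicate 2 or shAPE1#3 ABS replicate 3.

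The mean effect of both shRNAs in unexposed cells was set against the other line. OE33 minus FLO1, 1 member was lower and 0 higher (3.63 and 2.74% of all genes), with 6 at an unadjusted p under 0.05 and 3 called by DESeq2. It was TIMELESS, at -0.29 ± 0.09 (adjusted p = 0.0307, edgeR, 36 libraries). In FLO1 it had 172, 164 and 170 CPM with shAPE1#1, 208, 218 and 210 CPM with shAPE1#3, and 188, 191 and 203 CPM with shControl, so the FLO1 knockdown groups lay on either side of shControl. The call was lost in 13 of 36 omissions of 1 library. The count of members was 4 without FLO1 shControl ABS replicate 2, 2 without replicate 1 or 3 of that group or replicate 3 of shAPE1#3 in either line, and 0 without FLO1 shControl replicate 1 or 2, FLO1 shAPE1#1 replicate 1 or 3, FLO1 shAPE1#3 replicate 1 or 2, OE33 shAPE1#1 replicate 2 or 3, OE33 shAPE1#3 replicate 1 or 2 or any OE33 shControl replicate. E2F1 (-0.25), PCNA (-0.05) and MCM2 (0.02) did not pass.

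Over the 20 comparisons within lines 33 of the 47 genes were called at least once, 16 in FLO1, 27 in OE33 and 10 in both. The share of all genes called at least once was not computed, so these counts have no background to be read against. The 14 that were never called were ORC2, ORC6, MCM4, MCM8, CDC7, GINS1, GINS4, POLA1, POLA2, PRIM2, RFC1, RRM2, TK1 and CLSPN. TIMELESS, GINS2 and RPA3 were called in 6 comparisons each, the last 2 in OE33 alone, and CDC6, RPA2 and TYMS in 5.

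Other genes of the same processes were read beside the members. After ABS in OE33 shControl 6 of 8 further nucleotide supply genes fell, against 2.51% of all genes, among them SHMT1 (-0.34), DCK, deoxycytidine kinase (-0.33), and DUT, the dUTPase (-0.30). Of 27 further replication genes 2 fell, DSCC1 of an alternative clamp loader (-0.47) and the nuclease DNA2 (-0.34). Of 20 genes of E2F, RB and S phase entry RBL1 (-0.28) and MYBL2 (-0.25) fell and CCND1, cyclin D1, rose (0.35). Of 20 genes of G2 and mitosis 0 were called, with a median of -0.06. In FLO1 shControl cells ABS called 0 of 27 replication genes and 0 of 8 nucleotide supply genes. There 5 of 20 genes of G2 and mitosis fell, against 0.516% of all genes, led by CCNB1, cyclin B1 (-0.46), BIRC5 (-0.39), BUB1 (-0.36) and CCNB2 (-0.35), and of the S phase entry genes CDKN1B (-0.62) and CCNA2 (-0.42) fell and CDKN1A, the CDK inhibitor p21, rose (0.71). Of 15 p53 targets CDKN1A, GADD45A (0.77) and SESN2 (0.49) rose in FLO1 (2.48% of all genes rose), and SESN2 (0.39) and PHLDA3 (0.37) in OE33 (5.89% of all genes rose). Without FLO1 shControl ABS replicate 2, 7 of 20 genes of G2 and mitosis fell in FLO1 shControl, with CCNB1 at -0.37 and BUB1 no longer called (-0.25). The same 3 S phase entry genes and the same 3 p53 targets were called, and LIG1 (-0.31), ASF1B and DNMT1 (-0.28) of the 27 replication genes fell. With shAPE1#1 in FLO1 after ABS, DNMT1, the maintenance methyltransferase that UHRF1 guides (-0.74), the helicase RECQL4 (-0.55), CHAF1A (-0.39), TICRR (-0.34) and LIG1 were lower, and POLE4 (0.55) and POLD4 (0.48) were higher, 5 lower and 2 higher of 27 replication genes, against 8.31 and 8.26% of all genes. When FLO1 shControl ABS replicate 2 was left out, 6 were lower and 2 higher, with DNMT1 at -0.59 and RECQL4 at -0.31, and LIG1 was no longer called (-0.15). Of 20 S phase entry genes, 4 were lower and 1 higher in that comparison, against 8.31 and 8.26% of all genes. E2F2 (-0.65), MYBL2 (-0.43), CCNE1 (-0.27) and CDC25A (-0.24) were lower and CDKN1A higher (0.31). Without FLO1 shControl ABS replicate 2, 3 were lower and 1 higher. MYBL2 (-0.22) and CCNE1 (-0.24) were then no longer called, and E2F7 was. Of 15 p53 targets 4 were higher and 4 lower with all libraries, and 3 were higher and 3 lower without that library. In OE33 CDKN1A was lower with shAPE1#1 (-0.79) and with shAPE1#3 (-0.86) in unexposed cells.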

How the data were processed

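Gene counts of 36 polyA RNA libraries were used as deposited. The authors trimmed reads with Trimmomatic 0.36, aligned them with STAR 2.5.2b to GRCh38 and counted them with featureCounts of Subread 1.5.2, per the submitters' processing notes. The strand setting of the counting is not given in the sources used here, so reads of overlapping antisense genes cannot be told apart. IDs without a symbol held 0.0183% of counts. Symbols, coordinates, exon lengths and GC content came from GENCODE 29. The GC content was not taken over the merged exons used for the lengths. One FLO1 shAPE1#3 ABS column carries an extra suffix and was mapped by its name. Replicate pairs differed beyond counting noise (chi-square per degree of freedom 2.47 to 77.72 over 36 pairs), and each library counted as 1 replicate.

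Each line was fitted with its 18 libraries, and comparisons between lines with all 36, by edgeR 4.0.16 in R 4.3.3 (robust quasi-likelihood test, TMM, filterByExpr, log2 fold changes with SE), with Benjamini-Hochberg adjustment over all genes tested and calls at an adjusted p under 0.05. CPM were computed on library totals. Alternatives were DESeq2 1.42.0, RLE normalization, no filter, a replicate block, a GC correction (lowess span 0.3), a fit on the compared groups alone and the omission of each library. The scripts were tested on simulated data. Members and lists were chosen with earlier results of these data known. The text names up to 6 called members with the largest change per direction, MCM2, PCNA and E2F1 throughout, the leading called member of each role, and up to 4 called genes of each other list; further called members are named to complete a count. One gene that this rule would name in the nucleotide supply list is not reported here.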

Additional observations from a re-analysis of the deposited data

Results flagged for a closer look

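The ABS response of CDC6 in shControl cells differed between the lines, with OE33 minus FLO1 at -0.83 ± 0.10 on the log2 scale (adjusted p = 7.64e-07, edgeR). It was -0.29 in OE33 and 0.53 in FLO1. The unexposed knockdown effect on TIMELESS differed between the lines as well, with OE33 minus FLO1 at -0.29 ± 0.09 (adjusted p = 0.0307, edgeR). Medium and line cannot be told apart in either.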

How the results depend on the processing

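Counts of called members, out of 47, moved by more than 1.5 times as follows. With the GC correction the counts for ABS were 8, 9 and 6 in FLO1 shControl, shAPE1#1 and shAPE1#3 (1, 4 and 1 in the main analysis) and 33, 19 and 12 in OE33 (20, 10 and 2). For shAPE1#1 against shControl they were 16 unexposed and 21 after ABS in FLO1 (3 and 13) and 13 after ABS in OE33 (4), for shAPE1#3 against shControl in OE33 19 and 13 (12 and 6), and for shAPE1#3 against shAPE1#1 in FLO1 18 (7). Between lines they were 5 for ABS and 7 for knockdown (1 each). DESeq2 gave 3 for ABS in FLO1 shControl and shAPE1#3, 8 in OE33 shAPE1#3, 7 for shAPE1#1 in unexposed FLO1 and in OE33 after ABS, and 3 for both differences between lines. Fits on the compared groups alone gave 0, 11 and 4 for ABS in FLO1 shControl, shAPE1#1 and shAPE1#3, 0 and 11 in OE33 shAPE1#1 and shAPE1#3, 14 and 0 for shAPE1#1 in FLO1 unexposed and after ABS, 25 for shAPE1#3 against shAPE1#1, 2 for shAPE1#1 in OE33 after ABS and 4 for knockdown between lines. RLE gave 1 for ABS in OE33 shAPE1#3, and no filter gave 2 and 0 for ABS and knockdown between lines. The cause was not tested, and the share of all genes called in these settings is not reported. Same-numbered libraries did not deviate together (0 of 45 pairs over 0.1 in each line), so no pairing by replicate number was detected. With 3 libraries per group this check cannot exclude pairing. The replicate block gave 1 for ABS in OE33 shAPE1#3 and 2 for shAPE1#1 in OE33 after ABS, and left the other counts within 1.5 times. With 1 library left out the counts ran, for ABS, from 1 to 3, 1 to 10 and 1 to 3 in FLO1 shControl, shAPE1#1 and shAPE1#3, and from 9 to 24, 2 to 12 and 0 to 7 in OE33. For knockdown against shControl they ran from 0 to 13 and 9 to 17 (FLO1 shAPE1#1 unexposed and after ABS), 0 to 0 and 0 to 1 (FLO1 shAPE1#3), 4 to 9 and 2 to 8 (OE33 shAPE1#1) and 5 to 13 and 3 to 7 (OE33 shAPE1#3). For shAPE1#3 against shAPE1#1 they ran from 3 to 12 in FLO1 and 0 to 0 in OE33, and for interactions from 0 to 0. Between lines they ran from 37 to 38 for levels, 1 to 3 for ABS and 0 to 4 for knockdown. No named gene changed direction in a called result, and 3 libraries per group limit all counts.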
